A study of Mus musculus with 20 samples.

Results

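The 9 genes described here encode transporters of brain endothelium, the cells that line brain vessels and form the blood-brain barrier. They are Mfsd2a, Slc2a1, Abcb1a, Abcg2, Slco1a4, Slco1c1, Slc16a1, Slc22a8 and Slc19a3, chosen by name as known barrier transporters from the 57126 gene identifiers counted. All 9 were measured, and all 9 passed the filter on low counts that left 18648 genes. RNA came from the whole hippocampus of 20 adrenalectomized male C57BL/6 mice, with 5 mice in each of 4 groups. Wild-type mice have an unaltered Nr3c1, the gene of the glucocorticoid receptor. GRA knockin mice are homozygous for a replaced exon 2 of Nr3c1. In it the translation starts of the 7 N-terminally shorter receptor forms (GRB, GRC1 to GRC3 and GRD1 to GRD3) became isoleucine codons, and that of the full-length form GRA was kept. The replacement is not limited to any cell type. All mice lost their adrenal glands, the main source of circulating glucocorticoid, at about 2.5 months of age. After 2 weeks they received phosphate-buffered saline (PBS) or 1 mg per kg dexamethasone (Dex), a synthetic glucocorticoid, by intraperitoneal injection, and the hippocampus was taken 6 h later.

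Endothelial cells of brain vessels are sealed by tight junctions and take up few vesicles, so that nutrients, hormones and drugs cross mainly through carriers and pumps in the cell membrane. Carriers of the solute carrier (Slc and Slco) families bring in glucose, lipids, vitamins and thyroid hormone, while pumps of the ATP-binding cassette (Abc) family return drugs and toxins to the blood. Glucocorticoids act through the receptor made from Nr3c1, a transcription factor, and are used clinically to reduce leak of brain vessels. Several of these genes are also active outside endothelium, such as Slc2a1 and Slco1c1 in astrocytes, Slc16a1 in glia and Slc22a8 in choroid plexus, so counts from whole hippocampus add up all of these sources.

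The smallest library held 11493014 assigned read pairs and the largest 48267708, and the members' counts ranged from 38 (Slc19a3) to 6852 (Slc2a1) in a library. Each of the 16 endothelial identity markers checked was detected, with a summed level of 326 to 419 CPM (read counts scaled to library size) over the 20 libraries. Neuronal markers summed to 10595 to 12213 CPM. The targeted gene Nr3c1 was at 135 ± 21.7 CPM under PBS and 98.5 ± 8.26 CPM under Dex in wild-type libraries (SD, n = 5), and at 163 ± 24.0 and 111 ± 8.68 CPM in knockin libraries. A count summed over all its exons is blind to the altered start codons and checks no genotype label. Libraries differed in transcripts of other tissues, whose source was not tested. Choroid plexus markers summed to 40.7 to 1861 CPM, with wild-type PBS replicate 4 and knockin Dex replicate 2 highest. Liver markers summed to 4.98 to 273 CPM, with wild-type PBS replicates 1 and 2 highest. Without either pair of libraries, 8 of the 9 transporters were still called in each genotype, as in the full set. All 9 genes of a list induced by the glucocorticoid receptor rose with Dex in both genotypes, where 5.27% and 5.28% of all genes were called higher. That list was chosen with earlier results of these data known, so its rise describes these genes and tests nothing.

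Promoter sequences are shown for 4 members, in order to set the members that moved most beside the one whose annotated window held a receptor-like element. They are the 250 bases upstream of the annotated start from RefSeq (GRCm38.p6), 5′ to 3′ on the gene's strand. Mfsd2a and Slc2a1 had the largest rises of the 9, Slc16a1 the largest fall, and Abcb1a a small rise. Capitals mark matches to ACANNNTGT, the core of a glucocorticoid response element, or to ACGTG, the core that hypoxia-inducible factors bind.
Mfsd2a: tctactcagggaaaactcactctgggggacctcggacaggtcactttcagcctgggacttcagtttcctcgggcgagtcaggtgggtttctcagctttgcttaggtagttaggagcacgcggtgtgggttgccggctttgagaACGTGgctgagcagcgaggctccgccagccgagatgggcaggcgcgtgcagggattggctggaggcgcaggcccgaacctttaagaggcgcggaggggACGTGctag
Slc2a1: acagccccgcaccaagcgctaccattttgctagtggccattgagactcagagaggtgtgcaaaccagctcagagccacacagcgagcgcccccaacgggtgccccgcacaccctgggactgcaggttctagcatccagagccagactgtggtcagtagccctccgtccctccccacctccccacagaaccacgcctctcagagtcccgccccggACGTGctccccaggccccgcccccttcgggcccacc
Slc16a1: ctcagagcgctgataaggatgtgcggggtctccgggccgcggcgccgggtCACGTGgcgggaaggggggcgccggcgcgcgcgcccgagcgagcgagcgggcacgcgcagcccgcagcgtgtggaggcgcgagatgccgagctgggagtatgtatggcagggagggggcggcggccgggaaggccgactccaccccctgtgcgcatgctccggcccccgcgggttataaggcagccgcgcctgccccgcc
Abcb1a: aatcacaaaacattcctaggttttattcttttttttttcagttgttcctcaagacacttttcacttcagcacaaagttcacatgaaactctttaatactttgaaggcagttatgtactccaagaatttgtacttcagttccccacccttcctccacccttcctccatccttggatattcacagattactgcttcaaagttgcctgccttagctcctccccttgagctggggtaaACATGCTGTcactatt
These windows lie at chr4:122961189-122961438 on the minus strand for Mfsd2a and chr4:119108495-119108744 on the plus strand for Slc2a1. The Slc16a1 window is chr3:104638414-104638663 and the Abcb1a window chr5:8566841-8567090, both on the plus strand.

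Windows of all 9 members were searched on both strands, 11 in all because Abcg2 has 3 annotated starts. ACANNNTGT was found in Abcb1a alone, as ACATGCTGT with its first base 16 bases before the annotated start. Of all 32851 RefSeq promoter windows of that length 5.84% hold it, in 1828 of 27025 genes. The Abcb1a window ends at 8567090 in GRCm38, while the counted gene starts at 8710077 in mm39. The other members' windows have coordinates above, not below, those of their counted starts. Whether the Abcb1a window lies next to the start used in hippocampus was not checked. Neither the full element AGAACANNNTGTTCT nor its first part AGAACA was found in any member. Of all windows 0.00913% and 16.1% hold them, in 3 and 4912 of 27025 genes. ACANNNTGT is contained in the full element. ACGTG, searched after the sequences had been seen, was found in 4 of the 9 members, which were Mfsd2a, Slc2a1, Slc16a1 and Slc19a3. It was found in 4998 of 27025 genes, and in 16.6% of all windows. In Slc16a1 the matches on both strands overlap as CACGTG. A missing match says only that these letters are not in this window. The windows also differed in base composition: guanine and cytosine made up 76.4% of the Slc16a1 window, 66.4% of that of Slc2a1 and 61.6% of that of Mfsd2a, but 42.8% of that of Slco1c1, 40.4% of that of Abcb1a and 39.2% of that of Slco1a4.

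With Dex, 5 of the 9 transporters rose in wild-type hippocampus and 3 fell, and the same genes moved the same way in knockin hippocampus. The lipid carrier Mfsd2a rose most, to 4.13-fold its PBS level in wild-type and 4.52-fold in knockin mice, followed by the glucose carrier Slc2a1 at 2.26-fold and 2.38-fold. Smaller rises were seen for the efflux pumps Abcg2 and Abcb1a and the thiamine carrier Slc19a3. The monocarboxylate carrier Slc16a1, the organic anion carrier Slc22a8 and the thyroxine carrier Slco1c1 fell. Slco1a4, an organic anion carrier of broad specificity, was not called in either genotype. A gene was called at an adjusted p below 0.05 in edgeR's quasi-likelihood test with Benjamini-Hochberg adjustment over all 18648 genes. By that rule 9.21% of all genes were called in wild-type (5.27% higher, 3.94% lower) and 10.0% in knockin mice (5.28% higher, 4.71% lower). The median log2 fold change was 0.29 over the 9 members in each genotype and 0.00 over all genes. Because the tissue is a mixture, fewer cells of a type and less RNA per cell cannot be told apart. The summed endothelial markers were 374 to 414 CPM in wild-type PBS and 326 to 390 CPM in wild-type Dex libraries, and 373 to 419 and 331 to 378 CPM in knockin libraries; their part in the results was not tested beyond the rescaled fit given below.

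**Figure D1:**
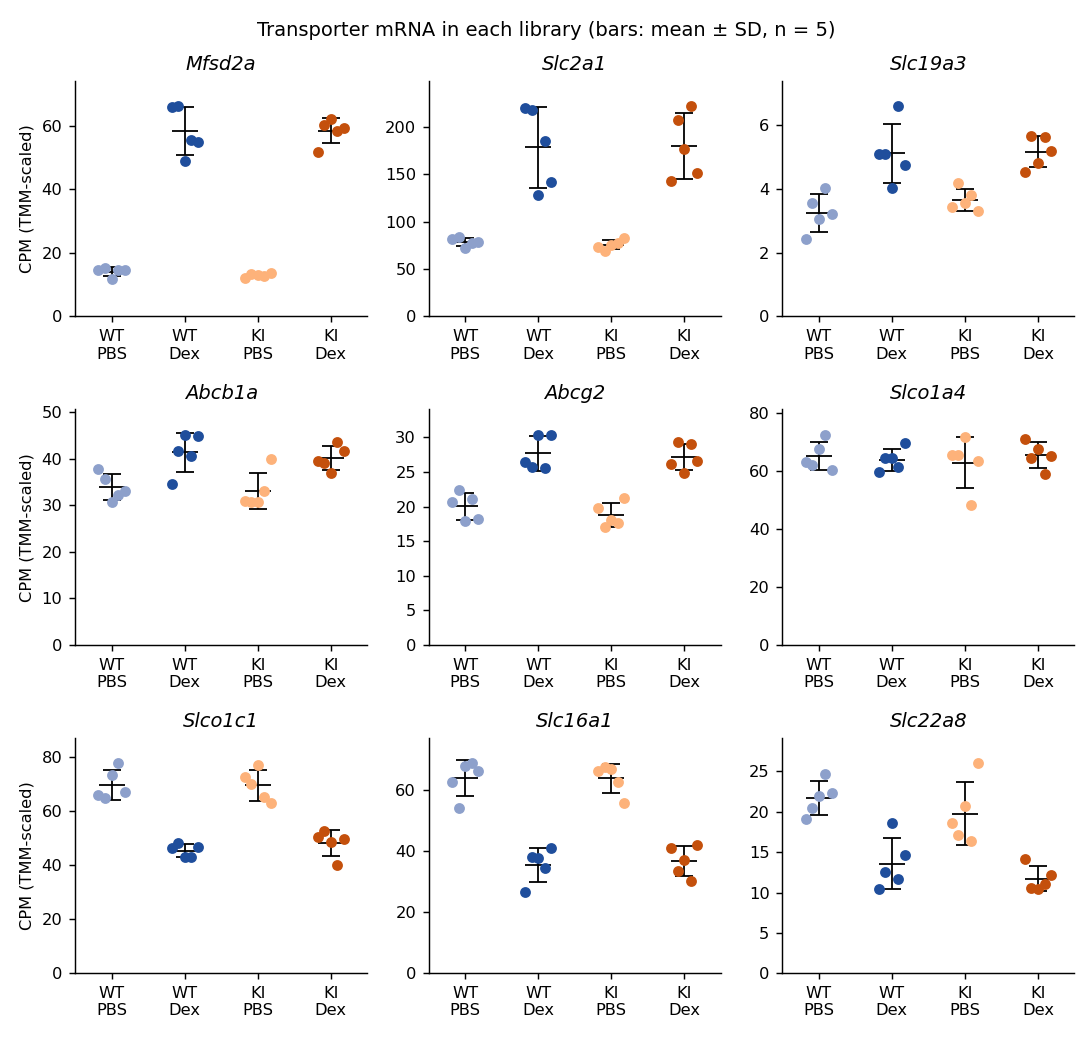
TMM-scaled CPM (trimmed mean of M values) of each of the 9 transporters on the vertical axis, with 1 point per library in each of the 4 groups and bars for the mean ± SD (n = 5). Mfsd2a and Slc2a1 are higher in every Dex library than in every PBS library, Slco1c1 and Slc16a1 are lower in every Dex library, and Slco1a4 has overlapping groups.

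Mfsd2a encodes the carrier of lysophosphatidylcholine that brings docosahexaenoic acid into the brain and is known to hold down vesicle traffic across brain endothelium. The gene (ENSMUSG00000028655.12) lies on mm39 chromosome 4, 122840643 to 122854981, minus strand. In wild-type PBS replicates 1 to 5 it was at 14.6, 15.1, 11.9, 14.5 and 14.6 CPM, and in wild-type Dex replicates at 65.8, 66.1, 49.0, 55.6 and 55.0 CPM. The knockin PBS libraries were at 12.1, 13.5, 12.9, 12.7 and 13.6 CPM, and the knockin Dex libraries at 51.8, 60.2, 62.1, 58.3 and 59.3 CPM. The lowest Dex library of either genotype lay far above the highest PBS library, 49.0 against 15.1 CPM, and the PBS ranges of the genotypes overlapped. Group means were 14.1 ± 1.28 and 58.3 ± 7.45 CPM in wild-type and 12.9 ± 0.613 and 58.4 ± 3.91 CPM in knockin mice (SD, n = 5). The log2 fold change was 2.05 in wild-type (SE 0.08, 95% confidence interval 1.88 to 2.21, edgeR adjusted p = 3.55e-14) and 2.17 in knockin mice (SE 0.08, 2.01 to 2.34, adjusted p = 1.43e-14). By p-value Mfsd2a ranked 1 of 18648 genes in both genotypes, while by size of rise it ranked 43 in wild-type and 40 in knockin mice. That rank depended on the fit: among 30 alternatives and the fit itself it was first in 24 of 31 for wild-type and 25 of 31 for knockin mice, and it was 39 and 48 without the low-count filter.

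Slc2a1 encodes GLUT1, the carrier that brings blood glucose into the brain. It lies 3.87 Mb from Mfsd2a on the same chromosome (ENSMUSG00000028645.12, mm39 chromosome 4, 118965908 to 118995180, plus strand). In wild-type PBS libraries it was at 82.1, 84.1, 72.5, 77.5 and 78.2 CPM and in wild-type Dex libraries at 220, 218, 128, 185 and 142 CPM. Knockin PBS libraries were at 73.5, 69.5, 76.0, 78.1 and 82.5 CPM and knockin Dex libraries at 143, 208, 177, 222 and 151 CPM. Every Dex library was above every PBS library, and the Dex libraries were spread far more widely. The coefficient of variation went from 5.72% under PBS to 23.8% under Dex in wild-type mice and from 6.39% to 19.1% in knockin mice. The log2 fold change was 1.18 in wild-type (SE 0.15, 95% confidence interval 0.86 to 1.49, edgeR adjusted p = 4.24e-05) and 1.25 in knockin mice (SE 0.15, 0.93 to 1.57, adjusted p = 1.9e-05). Of its exons 105 bases overlap the antisense gene model Gm12868, which had at most 31 counts in a library.

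The thiamine (vitamin B1) carrier gene Slc19a3 was the least abundant of the 9 (ENSMUSG00000038496.17, mm39 chromosome 1, 82990244 to 83016169, minus strand). It was at 2.42, 3.55, 3.05, 4.03 and 3.22 CPM in wild-type PBS and 5.09, 5.11, 4.02, 6.60 and 4.77 CPM in wild-type Dex libraries. In knockin mice it was at 3.45, 4.20, 3.55, 3.80 and 3.31 CPM under PBS and 4.54, 5.66, 4.83, 5.64 and 5.21 CPM under Dex. The knockin groups did not overlap, while in wild-type mice Dex replicate 3 lay just below PBS replicate 4. On the log2 scale Slc19a3 rose by 0.64 in wild-type (SE 0.13, edgeR adjusted p = 0.00104) and by 0.49 in knockin mice (SE 0.13, adjusted p = 0.0101).

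Both efflux pumps rose modestly. Abcg2 encodes the breast cancer resistance protein, a pump that returns many drugs to the blood (ENSMUSG00000029802.14, mm39 chromosome 6, 58573656 to 58672661, plus strand). Its 10 PBS libraries were at 17.0 to 22.4 CPM with a median of 19.0, and its 10 Dex libraries at 24.9 to 30.4 CPM with a median of 26.5. The treatments therefore did not overlap, in either genotype or across both. Its log2 fold change was 0.48 in wild-type (SE 0.07, edgeR adjusted p = 4.1e-05) and 0.54 in knockin mice (SE 0.07, adjusted p = 5.89e-06). Abcb1a encodes P-glycoprotein, the multidrug pump of the barrier (ENSMUSG00000040584.9, mm39 chromosome 5, 8710077 to 8798575, plus strand). In wild-type mice it was at 37.8, 35.7, 30.8, 32.2 and 33.0 CPM under PBS and 34.7, 41.7, 45.2, 40.6 and 44.9 CPM under Dex. Knockin values were 31.0, 30.8, 30.7, 33.0 and 40.0 CPM under PBS and 39.5, 39.1, 37.0, 43.6 and 41.7 CPM under Dex. In each genotype 1 library kept the groups from separating: wild-type Dex replicate 1 lay below PBS replicates 1 and 2, and knockin PBS replicate 5 lay above 3 Dex libraries. With Dex it rose by 0.29 on the log2 scale in wild-type (SE 0.08, edgeR adjusted p = 0.0153) and by 0.29 in knockin mice (SE 0.08, adjusted p = 0.012). The wild-type call was lost without PBS replicate 3 (0.25, adjusted p = 0.0594) and without Dex replicate 5 (0.26, adjusted p = 0.0519); over its alternatives the adjusted p in knockin mice stayed at or below 0.0418. Abcb1a has a close copy, Abcb1b, and 242 exonic bases shared with the antisense gene model Gm42686, so its level is uncertain. Abcb1b was at 4.49 CPM in wild-type PBS libraries and was not called (log2 fold change 0.07, adjusted p = 0.819 in wild-type; -0.07, adjusted p = 0.815 in knockin mice).

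The 3 organic anion carriers did not move as a block. Slco1c1 encodes OATP1C1, which carries thyroxine, the precursor of active thyroid hormone (ENSMUSG00000030235.18, mm39 chromosome 6, 141470112 to 141515903, plus strand). It was at 65.7, 64.8, 73.2, 77.6 and 66.9 CPM in wild-type PBS and 46.2, 48.2, 43.0, 42.9 and 46.5 CPM in wild-type Dex libraries. In knockin mice it was at 72.5, 70.1, 76.8, 65.1 and 62.8 CPM under PBS and 50.3, 52.4, 48.4, 39.9 and 49.5 CPM under Dex. Each PBS library lay above each Dex library, by at least the gap between 62.8 and 52.4 CPM. Its log2 fold change was -0.62 in wild-type (SE 0.07, edgeR adjusted p = 8.2e-07) and -0.53 in knockin mice (SE 0.07, adjusted p = 4.18e-06). Slco1a4, on the same chromosome, encodes OATP1A4, which moves bile salts, steroid conjugates and drugs (ENSMUSG00000030237.15, mm39 chromosome 6, 141751166 to 141801897, minus strand). Its 10 PBS libraries were at 48.4 to 72.6 CPM and its 10 Dex libraries at 59.1 to 71.2 CPM, both with a median of 64.5. The log2 fold change was -0.02 (95% confidence interval -0.19 to 0.14, edgeR adjusted p = 0.918) in wild-type and 0.06 (-0.10 to 0.23, adjusted p = 0.743) in knockin mice. Slco1a4 has close copies of its own subfamily, among which pairs mapping to several genes were not counted, so its level is uncertain too.

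Slc22a8 encodes OAT3, a carrier that clears organic anions such as hormone conjugates from brain to blood (ENSMUSG00000063796.10, mm39 chromosome 19, 8568618 to 8589199, plus strand). It was at 19.1, 20.5, 21.9, 24.7 and 22.3 CPM in wild-type PBS and 10.4, 12.6, 18.6, 11.7 and 14.6 CPM in wild-type Dex libraries. In knockin mice it was at 18.6, 17.1, 20.7, 16.4 and 26.0 CPM under PBS and 14.2, 10.6, 10.4, 11.1 and 12.2 CPM under Dex. The groups did not overlap within a genotype, but wild-type Dex replicate 3, at 18.6 CPM, lay above the knockin PBS libraries at 17.1 and 16.4 CPM. That library also had the highest summed meningeal markers of its group, 218 CPM where the group's median was 115 CPM. Slc22a8 fell by 0.65 on the log2 scale in wild-type (SE 0.14, edgeR adjusted p = 0.00536) and by 0.71 in knockin mice (SE 0.15, adjusted p = 0.00239).

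Slc16a1 encodes MCT1, the carrier of lactate, pyruvate and ketone bodies (ENSMUSG00000032902.2, mm39 chromosome 3, 104545984 to 104565778, plus strand). It was at 62.6, 54.2, 67.8, 68.7 and 66.1 CPM in wild-type PBS and 26.5, 38.2, 37.7, 34.6 and 40.9 CPM in wild-type Dex libraries. In knockin mice it was at 66.3, 67.3, 66.9, 62.4 and 55.8 CPM under PBS and 40.9, 33.4, 37.2, 30.1 and 42.0 CPM under Dex. All 10 Dex libraries lay below all 10 PBS libraries. It fell by 0.85 on the log2 scale in wild-type (SE 0.11, 95% confidence interval -1.08 to -0.62, edgeR adjusted p = 3.02e-05) and by 0.80 in knockin mice (SE 0.11, -1.03 to -0.57, adjusted p = 4.09e-05). Bsg encodes basigin, the partner that MCT1 needs to reach the cell surface, and it also fell, from 316 to 274 CPM in wild-type (log2 fold change -0.21, adjusted p = 0.000399) and from 312 to 283 CPM in knockin mice (-0.14, adjusted p = 0.0123). The Bsg calls were lost when libraries were scaled to endothelial markers.

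Within a genotype, the PBS and Dex groups did not overlap for 6 of the 9 transporters in wild-type and 7 of 9 in knockin mice, where 8.22% and 8.68% of all genes tested separated that way. Across both genotypes 5 of 9 separated all 10 Dex from all 10 PBS libraries, namely Mfsd2a, Slc2a1, Abcg2, Slco1c1 and Slc16a1, against 3.90% of all genes. For the mean response of both genotypes, 8 of the 9 were called, where 18.2% of all genes were. The members were picked with earlier results of these data known, so these counts describe them and do not test them as a group.

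Levels were also set relative to 16 endothelial markers, which are not a neutral reference. For the mean response of both genotypes 3 of them rose and 6 fell, with a median of -0.16. That is 56.2% called, where 18.2% of all genes were. When libraries were scaled to the geometric mean of the 16 endothelial markers, the log2 fold changes in wild-type mice were 2.10 for Mfsd2a, 1.24 for Slc2a1, -0.56 for Slco1c1 and -0.80 for Slc16a1. In knockin mice they were 2.31, 1.39, -0.40 and -0.67, and Slco1a4 then passed the test at 0.20 (edgeR adjusted p = 0.0435). This scaling moved the median log2 fold change of all genes to 0.05 in wild-type and 0.14 in knockin mice. It changed the split of calls from 983 higher and 734 lower to 948 and 465 in wild-type mice, and from 985 and 879 to 3499 and 463 in knockin mice. The 8 members called with library scaling kept their directions and calls under it.

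**Figure D2:**
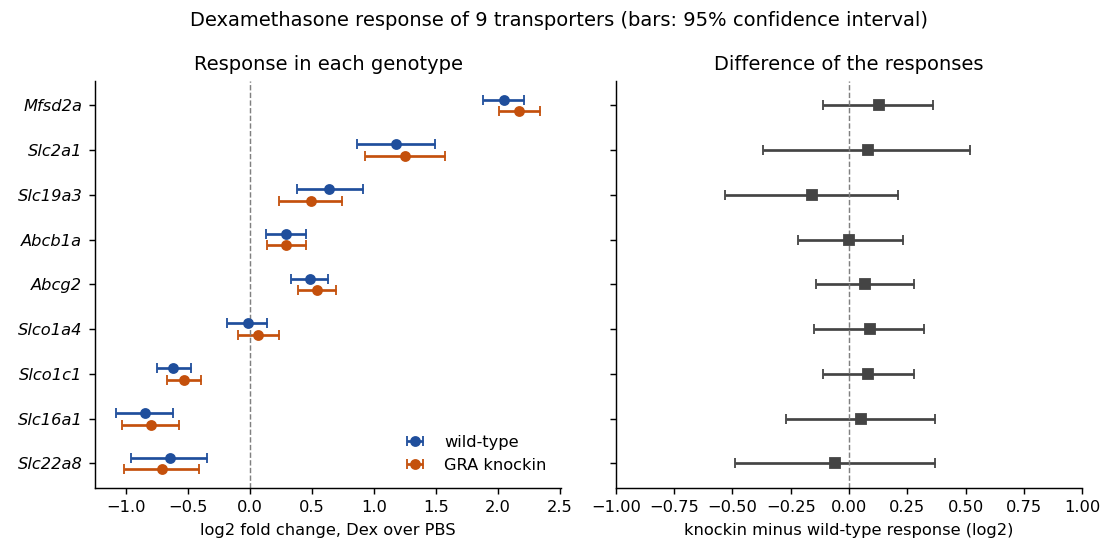
Left, log2 fold change of Dex over PBS for each transporter in wild-type (blue) and knockin (orange) hippocampus; right, knockin response minus wild-type response; bars are 95% confidence intervals. Mfsd2a reads 2.05 and 2.17, Slc16a1 -0.85 and -0.80, and every interval on the right spans 0.

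Knockin and wild-type hippocampus were then compared, which asks whether the shorter receptor forms matter for these genes. No transporter was called between genotypes under PBS, under Dex or for the difference of the Dex responses, and neither was any other gene (0% of genes called in each, by edgeR's quasi-likelihood test). At an unadjusted p under 0.05, 3.61% of all genes differed under PBS, 4.44% under Dex and 2.83% in response, and none of the 9 members was among them. Nor was a member called in these comparisons by DESeq2 or limma-voom. Under PBS the knockin minus wild-type log2 differences of the members ran from -0.15 (Slc22a8) to 0.19 (Slc19a3, unadjusted p = 0.155), and under Dex from -0.21 (Slc22a8, unadjusted p = 0.173) to 0.08 (Slco1c1). Beside the Slc22a8 value under Dex, the median of the 11 meningeal genes was -0.60, with 5 at an unadjusted p under 0.05. Genotype groups overlapped for all 9 members under either treatment, where 0.670% of all genes separated under PBS and 0.788% under Dex.

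The intervals show how large a genotype difference these data still allow. For Mfsd2a the knockin response exceeded the wild-type one by 0.13 log2 units, with a 95% confidence interval of -0.11 to 0.36 (edgeR unadjusted p = 0.272). The interval was -0.37 to 0.52 for Slc2a1, -0.27 to 0.37 for Slc16a1 and -0.49 to 0.37 for Slc22a8. It was narrowest for Slco1c1, at -0.11 to 0.28, and spanned -0.22 to 0.23 for Abcb1a and -0.14 to 0.28 for Abcg2. For Slco1a4 the interval was -0.15 to 0.32 and for Slc19a3 -0.53 to 0.21. A p that misses the threshold does not show that the genotypes respond alike. The genotype comparisons and the difference of responses use the same 20 libraries as the Dex comparisons. The Dex responses of the genotypes compare different libraries. They still come from 1 fit of all 20, with a shared filter, scaling and estimate of spread, so their p-values are not independent. In fits to the compared libraries alone 8 of the 9 transporters were called in each genotype.

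Dex changed the order of the members as well as their levels. Levels of different genes are compared per kilobase of exon (CPM per kb), since longer genes collect more reads. In wild-type PBS libraries Slc2a1 was highest at 24.2 CPM per kb (22.2 to 25.8), followed by Slco1c1 at 21.2 ± 1.70 (SD, n = 5), Slco1a4 at 17.1 ± 1.27 and Slc16a1 at 14.4 ± 1.33. Abcb1a (6.78 ± 0.561), Mfsd2a (6.58 ± 0.595) and Slc22a8 (6.24 ± 0.608) overlapped one another, and Abcg2 (3.47 ± 0.339) and Slc19a3 (1.09 ± 0.202) came last. Of the other neighbours in that order, Slc2a1 and Slco1c1 overlapped as well. In wild-type Dex libraries Mfsd2a had moved to the second place, at 27.1 ± 3.46 CPM per kb, below Slc2a1 at 54.8 ± 13.1 and above Slco1a4 at 16.7 ± 1.01, with no overlap on either side. Slco1c1 stood at 13.8 ± 0.709, Abcb1a at 8.29 ± 0.849 and Slc16a1 at 8.04 ± 1.25, the last pair overlapping. Abcg2 at 4.79 ± 0.426 and Slc22a8 at 3.90 ± 0.916 overlapped too, above Slc19a3 at 1.72 ± 0.315. The knockin order was the same under PBS, where Slco1a4 and Slc16a1 overlapped too. Under Dex it differed by Slc16a1 (8.29 ± 1.14) standing above Abcb1a (8.04 ± 0.503), which overlapped, as did Slco1a4 (17.1 ± 1.17) and Slco1c1 (14.7 ± 1.47).

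As a share of the summed CPM per kb of all 9, Mfsd2a went from 6.51 ± 0.608% to 19.4 ± 0.685% in wild-type and from 6.14 ± 0.358% to 19.3 ± 1.15% in knockin mice. The share of Slc16a1 went from 14.3 ± 1.18% to 5.86 ± 1.27% and that of Slco1c1 from 21.0 ± 1.17% to 9.99 ± 0.760% in wild-type mice. The sum itself went from 101 ± 3.48 to 139 ± 14.0 CPM per kb in wild-type and from 98.2 ± 4.10 to 140 ± 9.02 in knockin mice.

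**Figure D3:**
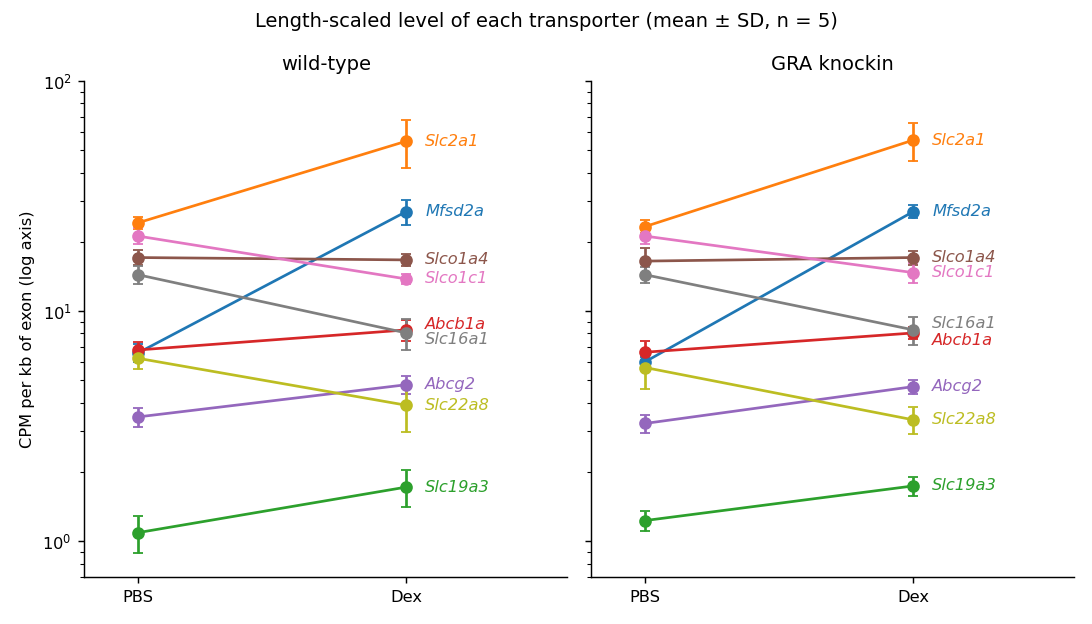
Mean ± SD (n = 5) of CPM per kb of exon, on a log axis, for each transporter under PBS and Dex in wild-type (left) and knockin (right) hippocampus. The Mfsd2a line climbs from 6.58 to 27.1 in wild-type mice and crosses those of Slco1a4, Slco1c1 and Slc16a1, while the Slco1a4 line stays near 17.

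Among 41 other transporters and uptake receptors of the barrier, 7 rose and 7 fell in wild-type and 6 rose and 6 fell in knockin mice, with medians of 0.00 and -0.05 on the log2 scale. The called share was 34.1% and 29.3%, against 9.21% and 10.0% of all genes. This list and those below were chosen with earlier results known, so such shares describe them and do not test them. The 4 called in both genotypes that rose most were Spns2, a carrier of sphingosine 1-phosphate and lysolipids (0.65 in wild-type and 0.63 in knockin mice), Abcc4, a pump of nucleotides and drug conjugates (0.62 and 0.43), Slc7a5, the large neutral amino acid carrier (0.52 and 0.48), and the thiamine carrier Slc19a2. The last was called at 0.20 in wild-type (adjusted p = 0.0467), a call lost in 21 of 30 alternatives, and at 0.33 in knockin mice (adjusted p = 0.000594). Slc38a5, a glutamine carrier, fell most (-1.66 and -1.64), then the zinc and manganese carrier Slc39a8 (-0.74 and -0.66). The manganese exporter Slc30a10 (-0.46 and -0.38) and the glutamine carrier Slc38a3 (-0.44 and -0.49) fell too, the latter with its call lost in 2 alternatives in each genotype. Slco2b1, an organic anion carrier, was called at -0.19 in wild-type, a call lost in 6 alternatives, and at -0.39 in knockin mice. The partner gene Slc3a2, the heavy chain that Slc7a5 needs at the membrane, was at 0.00 (adjusted p = 0.977) and -0.01 (adjusted p = 0.905). Abca1, the cholesterol exporter, was called in wild-type (0.54, adjusted p = 0.00233) and not in knockin mice (0.25, adjusted p = 0.187). No gene of this list was called for the difference of responses. In wild-type mice 8 of the 14 calls and in knockin mice 8 of the 12 held in every alternative.

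Mfsd2a is known to hold down the traffic of caveolae. Log2 fold changes of 19 genes for junctions and caveolae ran from -0.35 to 0.51 in wild-type and from -0.52 to 0.59 in knockin mice. Of these, 1 rose and 2 fell in wild-type (15.8%, against 9.21% of all genes). In knockin mice 2 rose and 5 fell (36.8%, against 10.0% of all genes). The medians were -0.09 and -0.12. Cavin2, a coat protein of caveolae, rose (0.51 and 0.59), while Cavin3 (-0.34 and -0.52) fell. In knockin mice F11r (-0.37) and Cdh5 (-0.34) were also called, both calls being lost with endothelial scaling, and so were Tjp1 (-0.12) and Ocln (0.25), whose calls were lost in 7 and 8 alternatives. Claudin 5 (Cldn5), the main tight junction protein of brain vessels, was at 0.02 in wild-type (adjusted p = 0.951) and -0.13 in knockin mice (adjusted p = 0.481). Caveolin 1 (Cav1) was at -0.12 (adjusted p = 0.377) and -0.07 (adjusted p = 0.664). Plvap, a gene of leaky vessels, was at -0.14 (adjusted p = 0.491) and -0.24 (adjusted p = 0.139).

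Wnt signals from neural cells induce the barrier, and 4 of 22 genes of that pathway and of barrier transcription factors rose and 4 fell in each genotype, with a median of -0.02 in both. The called share was 36.4% in each genotype, against 9.21% and 10.0% of all genes. The receptor Fzd4 (0.79 and 0.94) and the coreceptors Lrp5 (0.55 and 0.34) and Lrp6 (0.24 and 0.20) rose. The ligand Norrin, Ndp (-1.03 and -1.09), the ligands Wnt7a (-0.70 and -0.70) and Wnt7b (-0.17 and -0.22) and the feedback gene Nkd1 (-0.48 and -0.56) fell. Sox17 was called in knockin mice alone (0.36, adjusted p = 0.0478), a call lost in 18 alternatives, and the genotypes' difference was not called. The Lrp6 and Wnt7b calls were lost in 1 to 7. Axin2 and Apcdd1, common readouts of the pathway, were not called, at -0.13 (adjusted p = 0.251) and 0.08 (adjusted p = 0.442) in wild-type mice.

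Among 21 genes that handle the carried substrates, 2 rose and 2 fell in each genotype, with a median of 0.01 in both. The called share was 19% in each genotype, against 9.21% and 10.0% of all genes. Dio2, which converts thyroxine to the active hormone, rose from 81.3 to 333 CPM in wild-type (log2 fold change 2.03, SE 0.29, edgeR adjusted p = 0.000126) and from 79.6 to 291 CPM in knockin mice (1.87, SE 0.29, adjusted p = 0.000241), opposite to Slco1c1. Acsl3, which activates fatty acids, rose (0.38 and 0.51), and the fatty acid binding protein genes Fabp5 (-0.26 and -0.27) and Fabp7 (-0.50 and -0.50) fell. The neuronal glucose carrier gene Slc2a3 (GLUT3) was at 0.05 (adjusted p = 0.565) and 0.03 (adjusted p = 0.804), and Ldha and Hk1 were not called either.

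Endothelial identity genes gave 3 rises and 2 falls of 16 in wild-type and 1 rise and 3 falls in knockin mice, with medians of -0.09 and -0.19. The called share was 31.2% and 25%, against 9.21% and 10.0% of all genes. Ly6c1 rose (0.53 and 0.62), the angiopoietin receptor gene Tek fell (-0.55 and -0.52), and the most abundant, Flt1, was at -0.13 (adjusted p = 0.224) and -0.19 (adjusted p = 0.0411). Robo4 (0.32) and Tie1 (-0.34) were called in wild-type mice. Apart from that of Ly6c1, each call of this list was lost in 1 to 13 alternatives. Of 11 mural cell genes 0 were called by edgeR in wild-type mice (4 at an unadjusted p under 0.05, and 0 called by DESeq2 or limma-voom), and 1 rose and 2 fell in knockin mice (27.3% of the list). There DESeq2 called 5 and limma-voom 4, and the 3 edgeR calls, Abcc9 (0.31), Pdgfrb (-0.22) and Notch3 (-0.36), were lost in 13, 10 and 7 alternatives. Of 11 meningeal, 12 choroid plexus, 15 liver, 8 neuronal and 6 red cell genes, edgeR called 0 in either genotype. At an unadjusted p under 0.05 these lists had 0, 1, 4, 1 and 0 genes in wild-type and 0, 0, 1, 1 and 0 in knockin mice; DESeq2 called 1 liver gene in knockin mice, and limma-voom called 0. The choroid plexus list had a median log2 fold change of -1.29 in wild-type mice, against 0.62 in knockin mice. Its sum reached 1861 CPM in replicate 4 of the wild-type PBS group (group median 248 CPM). It reached 1447 CPM in replicate 2 of the knockin Dex group (group median 132 CPM). The liver list had median log2 fold changes of -1.67 in wild-type and 0.45 in knockin mice. Its highest sums, 273 and 161 CPM, fell in the wild-type PBS group (group median 9.3 CPM). The part of these libraries in the medians of both lists was not tested. Astrocyte genes gave 3 rises and 1 fall of 11 in each genotype, oligodendrocyte genes 3 and 4 falls of 9, and microglial genes 2 rises and 3 falls, then 3 falls, of 8. The called share was 36.4% in each genotype for astrocyte genes and 33.3% and 44.4% for oligodendrocyte genes. For microglial genes it was 62.5% and 37.5%, where 9.21% and 10.0% of all genes were called. The part of these cell types in the transporter results was not tested.

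**Figure D4:**
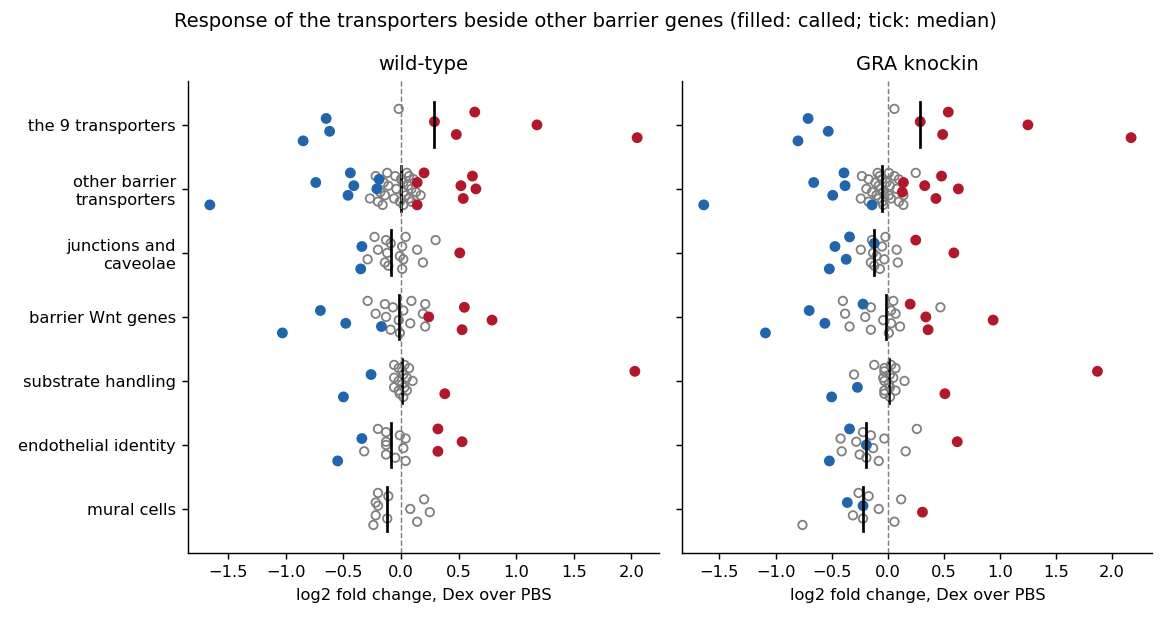
Log2 fold change of Dex over PBS for the genes of 7 lists in wild-type (left) and knockin (right) hippocampus; filled points were called (red higher, blue lower), open points were not, and the black tick is the list's median. The 9 transporters spread from -0.85 to 2.05 in wild-type mice, and the medians of the other 6 lists lie between -0.22 and 0.01 in both genotypes.

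Animals of 1 group also differed among themselves. This was measured on log2 CPM within each treatment, with each genotype's mean subtracted and libraries permuted within genotype. Among the 10 Dex libraries Mfsd2a and Slc2a1 were correlated at Pearson r = 0.80 (permutation p = 0.0209, Spearman rho 0.77, p = 0.031), falling to r = 0.60 without the 2 libraries farthest from the median of Mfsd2a. Slc2a1 and Slc16a1 ran in opposite directions among the 10 PBS libraries (r = -0.83, p = 0.00626, rho -0.84, p = 0.00487) and among the 10 Dex libraries (r = -0.75, p = 0.0196, rho -0.73, p = 0.0307), and r was -0.79 and -0.77 without the 2 libraries farthest from the median of Slc2a1. Among the PBS libraries the r of Mfsd2a and Slc2a1 was 0.58 (p = 0.0876, rho 0.50, p = 0.172), and 0.19 without 2. Slc2a1 and Abcb1a had opposite signs in the treatments, with r = 0.85 under PBS (p = 0.00371, rho 0.84, p = 0.0059, r = 0.83 without 2) and r = -0.47 under Dex (p = 0.242, rho -0.52, p = 0.179, r = -0.40 without 2); the difference was not tested. These pairs were picked from 72 relations, of which 14 had an unadjusted permutation p under 0.05 by Pearson's r. Among the rest were Slc2a1 and Slc22a8 (r = -0.85, p = 0.0044) and Slco1a4 and Slc16a1 (r = 0.82, p = 0.00649) under Dex. Slco1c1 and Slc16a1 had r = 0.79 (p = 0.00701, rho 0.93, p = 0.00114) under PBS. None of the 72 held after adjustment over all of them, where the smallest adjusted p was 0.101 for Pearson's r and 0.0821 for Spearman's rho.

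**Figure D5:**
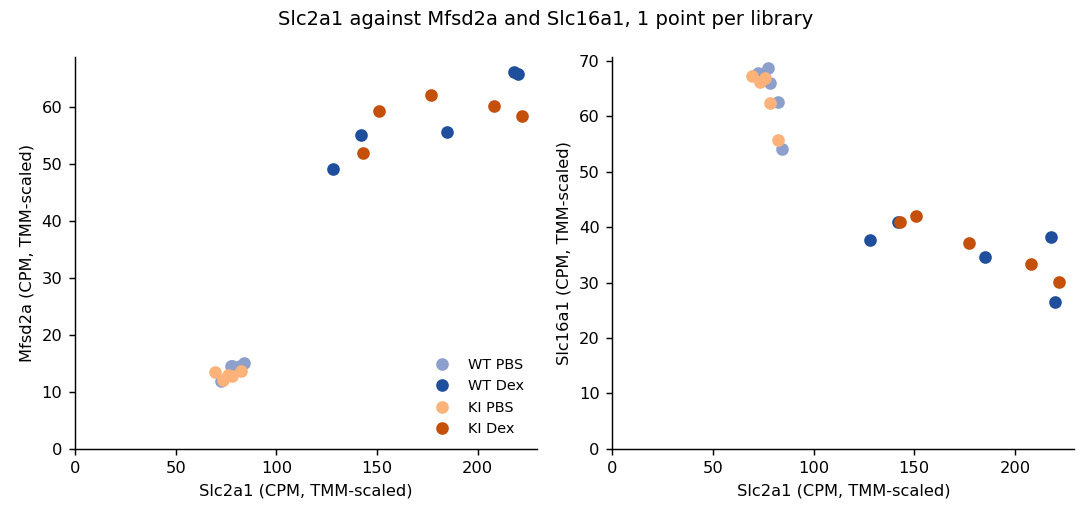
CPM of Slc2a1 on the horizontal axis against Mfsd2a (left) and Slc16a1 (right), 1 point per library, coloured by group. The PBS libraries sit at 69.5 to 84.1 CPM of Slc2a1 and the Dex libraries at 128 to 222 CPM, where those with more Slc2a1 tend to hold more Mfsd2a and less Slc16a1.

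Genes whose level followed each transporter most closely were ranked by Pearson's r of log2 CPM over the 20 libraries, after each group's mean was subtracted, among 12785 genes. All points share library and depth, so r is a description. Of the 27 genes named, 1 was also named when group means were kept. Slc2a1 was followed by Cdkn1a (0.93), Plcd4 (0.92) and Suox (0.91), and Mfsd2a by Trmt44 (0.80), Wbp1l (0.79) and Fgfr1 (0.78). Slc16a1 was followed by Vezt (0.82), St6gal1 (0.81) and Tirap (0.81), Slco1c1 by Bves (0.84), Lyl1 (0.83) and Abca8a (0.82), and Slco1a4 by Slc13a5 (0.88), Ptpn13 (0.83) and Chrna7 (0.82). The efflux pumps followed other genes: Abcb1a went with Serpind1 (0.87), Lmod1 (0.86) and Magi1 (0.85), and Abcg2 with Ogn (0.84), Pdgfd (0.84) and Tpm2 (0.83). Slc22a8 went with Uaca (0.87), Olfml2a (0.86) and Slc13a3 (0.84), and Slc19a3 with Exosc3 (0.78), Trub1 (0.76) and Ern1 (0.75).

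Marker lists moved with the same within-group differences. Over the 20 libraries, with group means subtracted, the meningeal list was correlated with Abcg2 (r = 0.81), Slc22a8 (0.77) and Abcb1a (0.72), and the mural list with Slc22a8 (0.72), Abcg2 (0.63) and Abcb1a (0.62). For Slc22a8 the endothelial list gave 0.58 and the choroid plexus list 0.01. Meningeal markers summed to 107 to 177 CPM in wild-type PBS and 76.8 to 218 CPM in wild-type Dex libraries, and to 77.4 to 162 and 88.4 to 120 CPM in knockin libraries, with 1 of the 11 at 0 in 1 knockin PBS library. The list of receptor-induced genes was correlated with Slc2a1 (0.78), Mfsd2a (0.69) and Slc16a1 (-0.66). It holds Cdkn1a and the meningeal list holds Ogn, so the values for Slc2a1 and Abcg2 partly repeat those of the paragraph above. The part of these differences between libraries in the transporter results was not tested.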

How the data were processed

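Poly(A) RNA was sequenced as 75-base read pairs. The authors deposited 1 count per gene and library, of read pairs and not normalized, made with featureCounts 2.0.6 and GENCODE M34, without strand or multi-mapping options, per the file headers. The submitters' processing notes name STAR 2.5.1, mm39, Subread 1.5.1 and DESeq2 1.38.3. Each library is taken as 1 mouse; otherwise p-values measure only the spread between samples. None of 40 library pairs within groups was a duplicate (chi-square per gene 2.51 to 12.6). Symbols came from a GRCm38 names table, for names alone, and matched 51884 of 57126 identifiers. The 5242 without a match held 0.264% to 0.337% of counts and stayed in.

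The count model was edgeR 4.0.16 under R 4.3.3, with filterByExpr (minimum count 10, total 15), TMM scaling, and a robust quasi-likelihood fit of all 20 libraries with 1 term per group (16 residual degrees of freedom), tested on simulated data. Log2 CPM used a prior count of 2. Depth limits low genes most, and counting error is part of the spread tested. Alternatives were DESeq2 1.42.0 (size factors, Wald test), limma-voom (limma 3.58.1), other filters, fits to the compared libraries, a replicate block, endothelial scaling and left-out libraries. Correlations within a treatment used 100000 permutations, 2-sided. Named were all 9 transporters, called genes of 4 barrier lists (up to 8 per list) and of marker lists (up to 4), and the 3 genes most correlated with each member; Slc38a3 and genes given as not called were chosen after their values were seen. Members and lists were chosen with earlier results of these data known. Values of some single list genes are not reported here.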

Additional observations from a re-analysis of the deposited data

Results flagged for a closer look

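In 36 sets of 5 libraries (9 transporters in 4 groups), a library was marked where its gap to the nearest other exceeded 0.71 of the group's range, and chance marks about 1 in 20. This marked 2. Mfsd2a in wild-type PBS replicate 3 was at 11.9 CPM, below the others at 14.5 to 15.1 CPM (gap 0.812 of the range). Abcb1a in knockin PBS replicate 5 was at 40.0 CPM, above the others at 30.7 to 33.0 CPM (gap 0.753 of the range). Without the first library the wild-type Dex response of Mfsd2a was 1.98 on the log2 scale, and without the second the knockin response of Abcb1a was 0.36, both still called.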

How the results depend on the processing

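With each library left out in turn, genes called with Dex numbered 1288 to 1784 in wild-type, 1501 to 1955 in knockin mice and 2966 to 3480 for the mean response, and 7 to 8, 8 and 8 transporters were called. Scaling to endothelial markers called 3962 genes in knockin mice (main 1864) and 5244 for the mean response (main 3393). A fit to the compared libraries alone called 1 gene between genotypes under Dex (main 0); the cause was not tested. DESeq2's Wald test called 1831 and 2003 genes with Dex.

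Directions changed only for values not called: with endothelial scaling, wild-type Slco1a4 (0.03), Abcb1a (0.02) and Abcg2 (0.04) between genotypes under Dex, and the response difference of Slc22a8 (0.03). With limma-voom, Slc2a1 between genotypes under Dex was -0.01 and the response difference of Slc22a8 0.01. Without the choroid-rich libraries, wild-type Slco1a4 was 0.01 and Slc2a1 between genotypes under Dex -0.04. Without the liver-rich libraries, Abcb1a between genotypes under PBS was 0.04, and the response differences of Abcg2 and Slc22a8 were -0.02 and 0.02. Values at 0.00 took either sign: over these alternatives Mfsd2a between genotypes under Dex was -0.01 to 0.06, Slc16a1 and Slco1c1 under PBS were -0.08 to 0.03 and -0.06 to 0.04, and the response difference of Abcb1a was -0.08 to 0.09.

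Leaving out 1 library gave ranges crossing 0 for the Slco1a4 response (-0.06 to 0.01 in wild-type, -0.02 to 0.11 in knockin mice, -0.02 to 0.04 for the mean) and, between genotypes under PBS, for Slco1a4 (-0.10 to 0.04), Slc16a1 (-0.05 to 0.04) and Slco1c1 (-0.03 to 0.04). Under Dex this held for Mfsd2a (-0.06 to 0.05), Slc2a1 (-0.08 to 0.11), Abcg2 (-0.06 to 0.01), Slc16a1 (-0.05 to 0.12) and Slc19a3 (-0.05 to 0.13) between genotypes, and for the response differences of Abcb1a (-0.06 to 0.07), Slc2a1 (-0.03 to 0.17), Slc16a1 (-0.05 to 0.11) and Slc22a8 (-0.16 to 0.10).

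Same-numbered libraries deviated together, at r over 0.1, in 5 of 20 pairs (r from -0.19 to 0.35). The labels do not say what a number pairs, and such correlations cannot show whether the mice were paired. With the replicate block, 1643, 1843 and 3367 genes and 8 transporters were called in each Dex comparison, and 0 between genotypes.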
